A study of Nothobranchius furzeri with 8 samples.

Results

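The mir-17, mir-19, mir-25 and mir-92 families are 4 of the 324 features, 235 named miRNA families and 89 predicted miRNAs, counted in small RNA of the killifish brain. They were taken by name from the table of counts, in which each is a single row, so whatever copies and arms of a family were counted share 1 value. The fish was the turquoise killifish Nothobranchius furzeri, an annual species with a short life, and every sample was brain from males of the strain MZM-04/10p. Samples at an age of 26 weeks (4 libraries) were set against samples at 6 weeks (4 libraries), with no treatment or genetic change named for either age. The 26-week samples carry the number 22 in their titles, and the age label was followed here. Samples of each age are numbered I to IV, and nothing in the labels ties a sample to its own fish. The p-values therefore measure only how these samples spread, part of which may be technical. Totals were 3347810 to 5715409 counts in the 26-week libraries and 2992917 to 4151620 in the 6-week ones. The brain families mir-9 and mir-128 were abundant at both ages, at means of 71463 and 55005 CPM in 26-week libraries, against 69261 and 61786 CPM in 6-week ones. CPM, the count relative to library size, is given after scaling of the libraries by TMM (trimmed mean of M-values), which sets libraries on 1 scale by assuming that most features do not differ.

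In vertebrates, mir-17, mir-19 and mir-92 are cut from 1 primary transcript, the mir-17-92 cluster, which is switched on by Myc and E2F factors in dividing cells. The mir-25 family belongs to a paralogous cluster that in mammals lies inside an intron of Mcm7, a gene of the DNA replication helicase. In mammals, mir-17 family members repress the cell-cycle inhibitor Cdkn1a and the death factor Bim. The mir-25 and mir-92 families share a seed, the stretch that pairs with target transcripts, whereas mir-17 and mir-19 each have another. In the embryonic mouse cortex the mir-17-92 cluster promotes expansion of neural progenitors, and the adult fish brain keeps zones of dividing progenitors throughout life.

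The levels of the families differed by an order of magnitude in the killifish brain. The order by mean CPM over the 8 libraries was mir-92 (15226, the 14th most abundant of the 212 tested features), mir-19 (3483, the 30th), mir-25 (2217, the 36th) and mir-17 (1264, the 49th). The values were not scaled by length, since mature miRNAs are of like size, but ligation in library preparation favours some sequences, so levels of different families compare only roughly. The count of mir-92 exceeded that of each other family in 8 of 8 libraries, and that of mir-25 exceeded mir-17 in 8 of 8. The place of mir-19 was less fixed: it exceeded mir-17 in 7 of 8 libraries and was above mir-25 in all but 2 of them, the 26-week libraries I and II. The features next to the families in mean level over the 8 libraries were above them in some libraries and below in others. Next above mir-92, mir-21 was higher in 6 of 8 libraries, and mir-338, next below it, was lower in 4 of 8. By age, mir-338 averaged 21493 CPM at 26 weeks and 8954 CPM at 6 weeks, against 13621 and 16830 CPM for mir-92. A like mean over the 8 libraries thus need not be a like level at each age. The neighbours of mir-19 were mir-3596 (higher in 5 of 8) and mir-129 (lower in 4 of 8), those of mir-25 were mir-130 (higher in 4 of 8) and mir-228 (lower in 4 of 8), and those of mir-17 were mir-133 (higher in 5 of 8) and mir-337 (lower in 6 of 8).

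Counting error was small beside the spread between libraries. The lowest count of any of the families in any library was 3327, for which the counting error is 1.73%, and counting error is a lower bound because reads without molecular identifiers are not independent molecules. The spread between libraries of 1 age was larger, with coefficients of variation of 4.17% for mir-25 at 6 weeks up to 50.8% for mir-19 at 26 weeks.

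**Figure D1:**
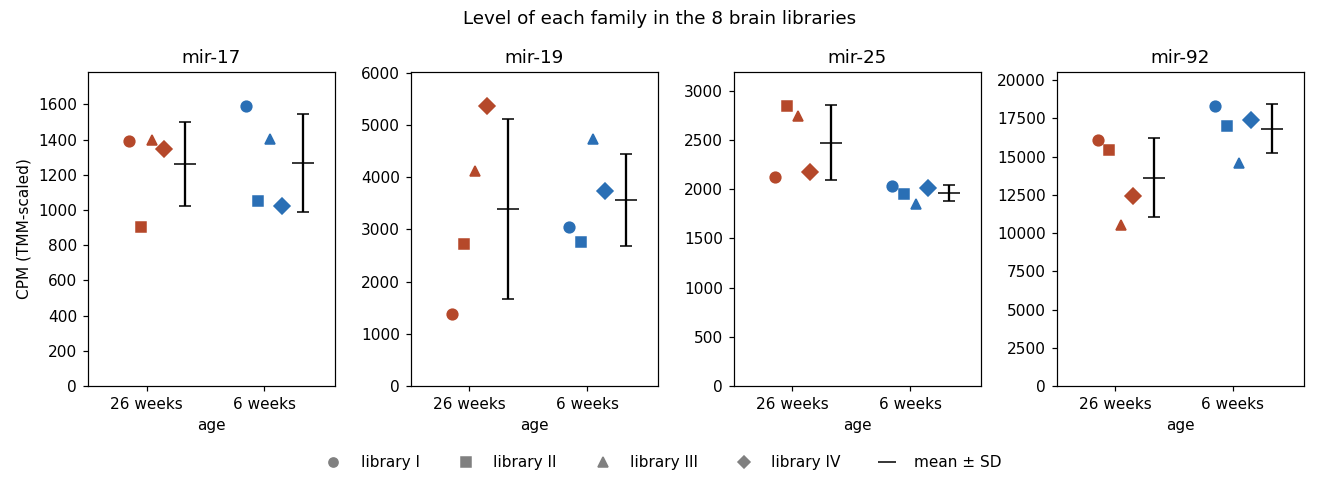
CPM of each family (vertical axis, from 0) in the 4 libraries at 26 weeks and the 4 at 6 weeks, with a symbol per library number and the mean ± SD of each age beside the points. The mir-25 points at 26 weeks all lie above those at 6 weeks, the mir-19 points at 26 weeks spread from 1381 to 5376 CPM, and the ages overlap for mir-17, mir-19 and mir-92.

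The comparison of the ages asked whether families tied to cell division differ between the brain of the older and that of the younger fish. None of the 4 passed the test of age: mir-25 averaged 1.26-fold of its 6-week level, mir-92 0.809-fold, mir-19 0.953-fold and mir-17 0.993-fold. With edgeR (quasi-likelihood, Benjamini-Hochberg over all 212 tested features, threshold 0.05), 0 of 4 families were called, against 14.2% of all tested features (10.4% higher and 3.77% lower at 26 weeks). The other tools, DESeq2 and limma-voom, also called 0 of 4, where they called 38 and 31 of the 212 tested features. Of the families 1 of 4, mir-25, had an unadjusted edgeR p under 0.05, against 29.2% of tested features. With the library number as a block 2 of 4, mir-25 and mir-92, did, against 45.8% of tested features. The background itself depended on the libraries, since 47 features in place of 30 were called without the 26-week library I and 59 (27.8%) with the library number as a block. Its split also depended on the scaling, at 22 higher and 8 lower with TMM, 15 and 11 with upper-quartile factors and 15 and 12 with total counts alone. In all of these fits 0 of the 4 families were called.

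The mir-17 family, the first member of the cluster, held 1391, 904, 1396 and 1347 CPM in the 26-week libraries I to IV, against 1593, 1054, 1403 and 1022 CPM in the 6-week libraries I to IV. The ages largely overlapped, and library II was the lowest at 26 weeks and libraries II and IV the lowest at 6 weeks. Means were 1259.5 ± 238 CPM at 26 weeks and 1268 ± 277 CPM at 6 weeks (SD, n = 4 per age). The log2 fold change was -0.01 ± 0.20 (SE, edgeR quasi-likelihood, Benjamini-Hochberg adjusted p = 0.977), with a 95% interval of -0.47 to 0.45, which leaves room for levels at 26 weeks from 0.721 to 1.37 times those at 6 weeks. With the library number as a block it was -0.01 ± 0.14, with a narrower interval of -0.34 to 0.33 (SE, edgeR, Benjamini-Hochberg adjusted p = 0.976). The sign of the value without the block was not settled. It turned positive without any 1 library other than the 26-week library I, up to 0.25 without the 26-week library II. With RLE factors it was 0.02, and with total counts alone -0.22. Fits without a library were scaled anew, so the whole scale moved as well. Set against the median of all tested features, mir-17 was at 0.05 with all libraries and 0.20 without the 26-week library II. Without the 6-week library II or IV it lay at that median (-0.0001 and -0.0010).

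The mir-19 family was the most variable of the 4. It held 1381, 2722, 4117 and 5376 CPM in the 26-week libraries I to IV, against 3039.9, 2754, 4743 and 3732 CPM in the 6-week libraries I to IV. The 26-week values ran from below every 6-week value to above every one of them, a 3.89-fold span from library I to library IV, against a span of 1.72-fold at 6 weeks. The pooled SD of log2 CPM within an age was 0.65 for mir-19, the 52nd of 53 from the least variable among tested features with a mean of at least 1000 CPM, for which the median was 0.22. The same SD was 0.31 for mir-17, 0.22 for mir-92 and 0.16 for mir-25. Means of mir-19 were 3399 ± 1728 CPM at 26 weeks and 3567 ± 885 CPM at 6 weeks (SD, n = 4 per age), with a log2 fold change of -0.07 ± 0.37 (SE, edgeR, Benjamini-Hochberg adjusted p = 0.939). Its 95% interval, not adjusted for the number of features tested, ran from -0.91 to 0.77, or from 0.534-fold to 1.70-fold. At this spread it leaves room for a fall or a rise within these bounds. With the library number as a block the value was -0.20 ± 0.25, with an interval of -0.81 to 0.41 (SE, edgeR, Benjamini-Hochberg adjusted p = 0.590). With the log2 total as a covariate the value was -0.78 (edgeR, Benjamini-Hochberg adjusted p = 0.409). In fits with neither block nor covariate, the sign turned without the 26-week library I (0.19) or II (0.11). It also turned without the 6-week library III (0.13) or IV (0.05). Set against the median of all tested features in each fit, these values were 0.25, 0.06, 0.16 and 0.02, against -0.01 with all libraries.

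The mir-92 family, the most abundant of the 4, held 16067, 15454, 10560.0 and 12406 CPM in the 26-week libraries I to IV, against 18347, 16985, 14601 and 17387 CPM in the 6-week libraries I to IV. The lowest 2 values were those of the 26-week libraries III and IV, the ages overlapped because the 26-week libraries I and II lay above the 6-week library III, and the 26-week library was the lower of each same-numbered pair in 4 of 4 pairs. Means were 13621 ± 2594 CPM at 26 weeks and 16830.0 ± 1592 CPM at 6 weeks (SD, n = 4 per age). The log2 fold change was -0.31 ± 0.15 (SE, edgeR, Benjamini-Hochberg adjusted p = 0.209, unadjusted p = 0.0710). The 95% interval, -0.64 to 0.03, runs from 0.641-fold to 1.02-fold. In the fit with the library number as a block the value was -0.32 ± 0.10 with an interval of -0.56 to -0.08 (SE, edgeR, Benjamini-Hochberg adjusted p = 0.0511, unadjusted p = 0.0152), which did not pass either. As a share of all counts, mir-92 took 1.28 ± 0.376% at 26 weeks and 1.83 ± 0.265% at 6 weeks (SD, n = 4 per age). By edgeR with Benjamini-Hochberg adjustment, the log2 value was -0.51 with total counts alone (adjusted p = 0.115). Leaving out the 26-week library III gave -0.10 (adjusted p = 0.781), in a fit where the scale had moved as well. Set against the median of all tested features, mir-92 was at -0.12 in that fit and at -0.24 with all libraries. The 26-week libraries were also the deeper ones on average, and with the log2 total as a covariate the value was -0.11 (adjusted p = 0.804), so that depth and age could not be told apart here.

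The mir-25 family held 2124, 2848, 2744 and 2174 CPM in the 26-week libraries I to IV, against 2034, 1954, 1849.9 and 2010.1 CPM in the 6-week libraries I to IV. It was the only 1 of the 4 whose ages did not overlap, as held for 21.7% of all tested features, and the gap between the lowest 26-week and the highest 6-week library was narrow. The 26-week libraries II and III stood high, whereas I and IV lay close to the 6-week values. Means were 2473 ± 376 CPM at 26 weeks and 1962 ± 81.9 CPM at 6 weeks (SD, n = 4 per age). The log2 fold change was 0.33 ± 0.14 (SE, edgeR, Benjamini-Hochberg adjusted p = 0.145, unadjusted p = 0.0366), and its 95% interval of 0.03 to 0.64 is not adjusted for the number of features tested. With the library number as a block the value was 0.32 ± 0.13, with an interval of 0.01 to 0.64 (SE, edgeR, Benjamini-Hochberg adjusted p = 0.105). As a share of all counts, mir-25 took 0.228 ± 0.0265% at 26 weeks and 0.213 ± 0.0197% at 6 weeks (SD, n = 4 per age), and on this scale the ages overlapped. Without TMM scaling the log2 value was accordingly 0.10 (edgeR, Benjamini-Hochberg adjusted p = 0.571), and with the log2 total as a covariate it was 0.16 (adjusted p = 0.671).

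**Figure D2:**
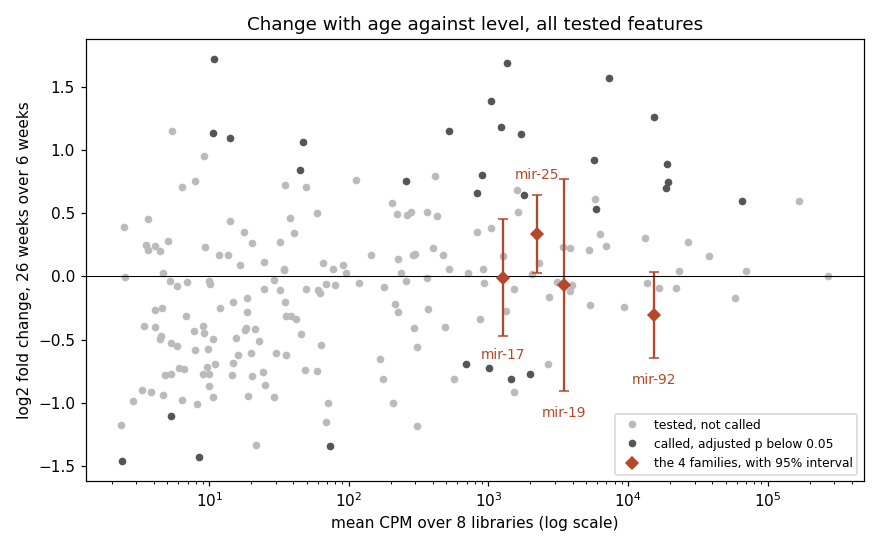
Log2 fold change of 26 weeks over 6 weeks (vertical axis) against mean CPM on a log scale for each of the 212 tested features, with called features darker and the 4 families as diamonds with 95% intervals. The intervals of mir-17, mir-19 and mir-92 include 0, that of mir-25 starts at 0.03, and the interval of mir-19 is the widest of the 4.

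How the libraries were scaled moved all 4 families alike. The median log2 fold change of all tested features was -0.06 with TMM, -0.04 with RLE, -0.24 with upper-quartile factors, -0.29 with total counts and -0.02 with TMM computed without the 5 most abundant features. Set against that median, the families kept their places under these 5 scalings: mir-25 was 0.39 to 0.41 above it, mir-92 was -0.24 to -0.22 from it, mir-17 was 0.05 to 0.07 above it and mir-19 was -0.04 to -0.01 from it (log2 units). That is no check of the values, because a change of scaling moves all features by nearly the same amount. Other settings did move these places. With the log2 total as a covariate mir-25 was 0.11 above the median and mir-19 was -0.84 from it. Over single libraries left out mir-25 was 0.33 (without the 26-week library II) to 0.54 (without IV) above it.

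**Figure D3:**
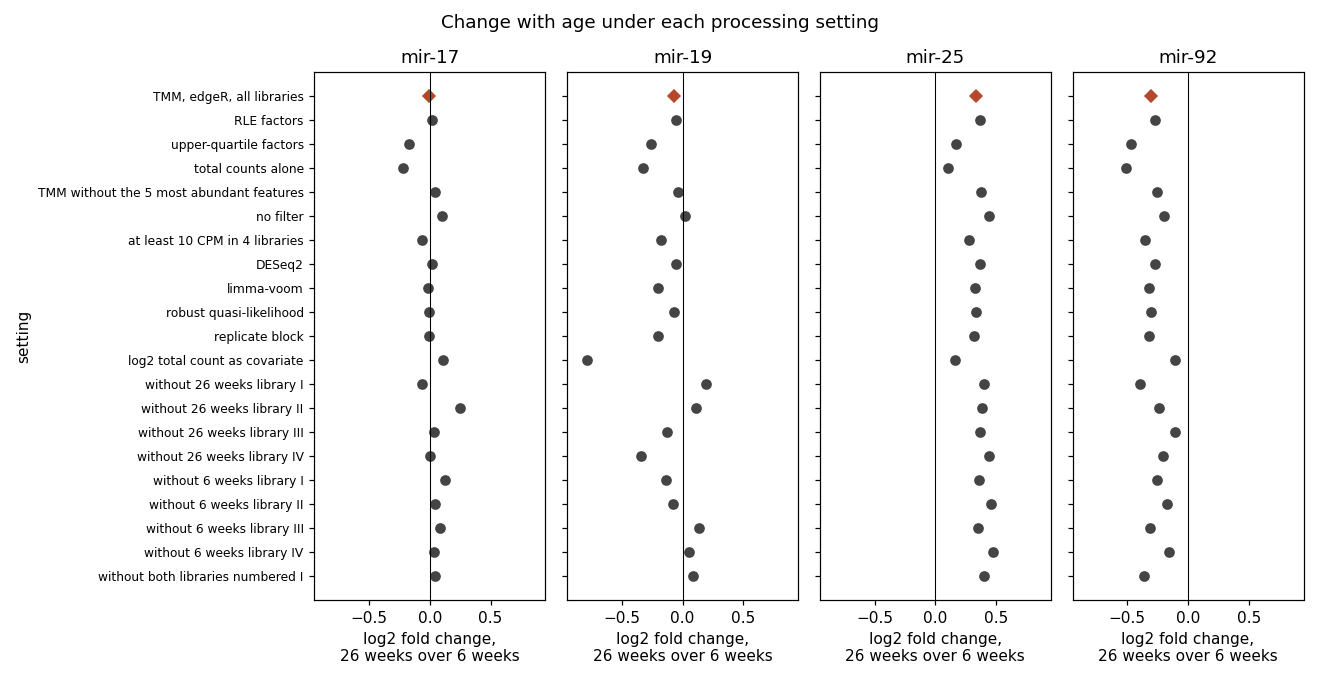
Log2 fold change of 26 weeks over 6 weeks (horizontal axis) of each family under each processing setting (rows), with the setting of the values above as a red diamond. Every mir-25 value lies above 0 and every mir-92 value below 0, whereas mir-17 and mir-19 fall on both sides.

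Ratios between families within a library do not depend on how that library was scaled. The ratio of mir-25 to mir-92, which share a seed, was 0.132, 0.184, 0.260 and 0.175 in the 26-week libraries I to IV, against 0.111, 0.115, 0.127 and 0.116 in the 6-week libraries I to IV. The ages did not overlap, with the 6-week libraries close together and the 26-week libraries spread above them, library I nearest. The mean log2 ratio was -2.45 ± 0.40 at 26 weeks and -3.10 ± 0.08 at 6 weeks (SD, n = 4 per age), a 1.56-fold higher ratio at 26 weeks, in 4 of 4 libraries. The exact two-sided permutation test gave p = 0.0286, the smallest that 4 against 4 can give. After Benjamini-Hochberg adjustment over the 6 ratios between the families p was 0.171, so the difference did not pass. When only 1 of the 6 ratios is at the smallest p, it cannot pass after this adjustment. The adjusted p therefore does not decide whether this ratio differs between the ages. With libraries paired by number the exact permutation p, not adjusted, was 0.125, the smallest that 4 pairs allow. Of the reads of this seed pair, mir-92 supplied 84.3 ± 3.70% at 26 weeks and 89.5 ± 0.540% at 6 weeks (SD, n = 4 per age).

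The other ratios overlapped between the ages. The ratio of mir-19 to mir-17, whose rows may each pool several copies, was 0.993, 3.01, 2.95 and 3.99 in the 26-week libraries I to IV, against 1.91, 2.61, 3.38 and 3.65 in the 6-week libraries I to IV. It was the lowest in library I at each age, and its difference in mean log2 ratio of -0.20 (exact permutation p = 0.771, n = 4 each) was 0.23 without the 26-week library I. The ratio of mir-19 to mir-92 ran from 0.0860 in the 26-week library I to 0.433 in the 26-week library IV and from 0.162 to 0.325 at 6 weeks (difference in mean log2 ratio 0.11, exact permutation p = 0.8, n = 4 each). That difference was -0.15 without the 26-week library III, -0.20 without IV and -0.01 without the 6-week library II. Differences in mean log2 ratio were 0.53 for mir-25 to mir-19, 0.33 for mir-25 to mir-17 and 0.31 for mir-17 to mir-92, with exact permutation p of 0.314, 0.314 and 0.4 (n = 4 each). Leaving out 1 library moved the first of these to 0.22 (without the 26-week library I) and 0.87 (without IV), the second to 0.10 (without the 26-week library II), and the third to 0.14 (without III) and 0.53 (without II). The adjusted p of these 5 ratios ran from 0.6 to 0.8. Among libraries of 1 age, the SD of the log2 ratio of mir-19 to mir-92 was 1.09 at 26 weeks and 0.47 at 6 weeks, and that of mir-17 to mir-92 was 0.51 at 26 weeks and 0.35 at 6 weeks.

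**Figure D4:**
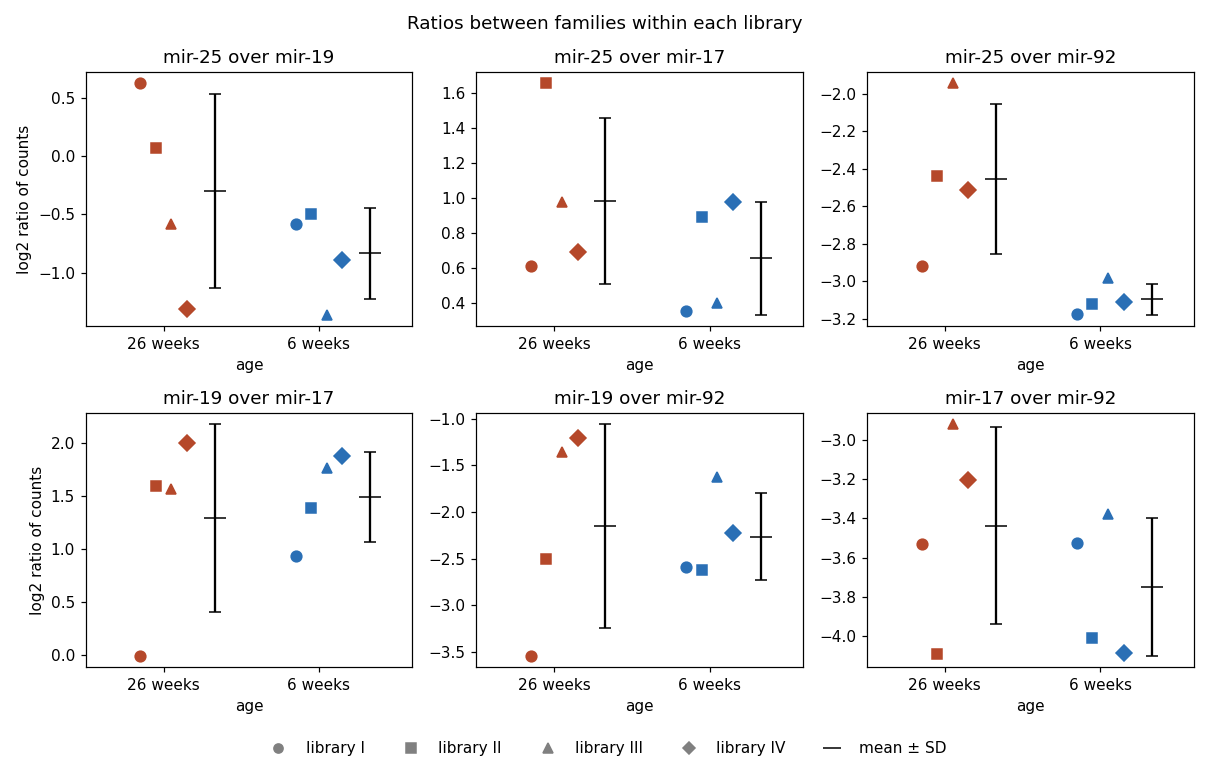
Log2 ratio of counts between each pair of families (vertical axes, each panel with its own range) in the 4 libraries at 26 weeks and the 4 at 6 weeks, with a symbol per library number and the mean ± SD of each age. In the panel of mir-25 over mir-92 the 26-week libraries lie between -2.92 and -1.94 and the 6-week libraries between -3.17 and -2.98, and in the other 5 panels the ages overlap.

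The summed level of the families, most of it mir-92, ran from 18817 to 21928 CPM in the 26-week libraries, against 22597 to 25014 CPM in the 6-week libraries, with means of 20753 ± 1351 CPM at 26 weeks and 23627 ± 1159 CPM at 6 weeks (SD, n = 4 per age). The ages did not overlap on this scale. As a share of all counts the sum was 1.93 ± 0.285% at 26 weeks and 2.56 ± 0.255% at 6 weeks (SD, n = 4 per age), and there the ages overlapped, since the 26-week library I, at 2.33% (95% Wilson interval 2.32 to 2.35%), lay above the 6-week library III, at 2.30% (2.29 to 2.32%). No p is given for the sum, because it is a score over families chosen with earlier results known. The lack of overlap in CPM is a description for the same reason, and taken singly 21.7% of all tested features did not overlap. Within the sum, mir-92 made up 65.4 ± 9.83% in 26-week libraries, against 71.2 ± 4.50% in 6-week libraries (SD, n = 4 per age). The part of mir-19 was 16.5 ± 8.57% in 26-week libraries, against 15.2 ± 4.18% in 6-week libraries. That of mir-25 was 11.98 ± 2.19% in 26-week libraries, against 8.31 ± 0.206% in 6-week libraries, and that of mir-17 was 6.13 ± 1.41% in 26-week libraries, against 5.36 ± 1.09% in 6-week libraries.

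**Figure D5:**
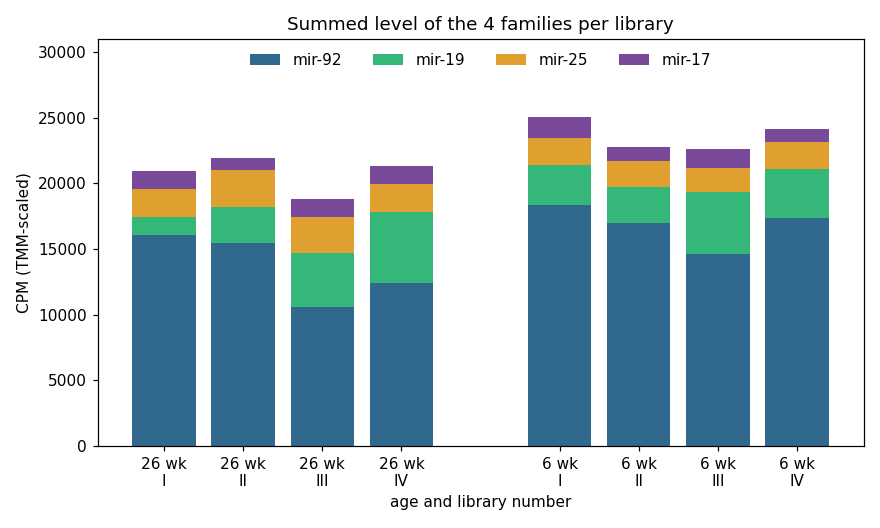
CPM of the 4 families stacked for each library (vertical axis, from 0), with the 26-week libraries I to IV on the left and the 6-week libraries I to IV on the right. The stacks at 26 weeks end between 18817 and 21928 CPM and those at 6 weeks between 22597 and 25014 CPM, and mir-92 is the largest part of each.

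None of the 4 families was among the 3 features with a profile across libraries most like that of another of them. Likeness was measured as the root mean square difference between log2 CPM profiles over the 8 libraries, each centred on its own mean, among 163 other features with a mean of at least 10 CPM. The features most like mir-17 were mir-193 (0.17), mir-423 (0.19) and mir-137 (0.20), whereas mir-25, the nearest of the other families, was 45th at 0.39 and mir-19 115th at 0.61. The profiles nearest to mir-19 were pred_95 (0.30), mir-727 (0.34) and mir-642 (0.36), with mir-17 68th. Closest to mir-25 were lin-4 (0.09), which as a family name includes miR-125, mir-140 (0.16) and mir-460 (0.16), and its seed partner mir-92 was 80th at 0.41. Closest to mir-92 were the neuronal family mir-128 (0.18), mir-3179 (0.19) and mir-471 (0.20). Small differences favour features that vary little, so these values describe the 8 libraries and carry no test.

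Other names of the paralogous clusters, mir-18, mir-20, mir-93, mir-106 and mir-363, had no row of their own in the table analysed, and whether such reads were counted within the 4 families is not given in the sources used here. Of 7 families known as brakes on division, let-7, lin-4, mir-15, mir-16, mir-26, mir-34 and mir-449, 1 rose (mir-26, log2 0.60 ± 0.13, edgeR, Benjamini-Hochberg adjusted p = 0.0153) and 0 fell, a share near the 14.2% of all tested features. Their median log2 fold change was 0.22, against -0.04 for the 4 cluster families and -0.06 for all tested features. That median is the value of mir-34 (0.22 ± 0.35, SE, edgeR, Benjamini-Hochberg adjusted p = 0.720). The brakes ran from -0.23 (mir-16) to 0.60 (let-7), with 5 above 0 and 2 below. With the library number as a block, or without the 26-week library I or the 6-week library III, let-7 also passed, and with upper-quartile factors mir-26 did not pass and mir-16 was lower, as it was with total counts alone. Of 8 tested families of neural progenitors and of neuronal and glial differentiation, 4 rose and 0 fell, where 10.4% of all tested features rose. Those that rose were mir-124 (0.92), mir-132 (0.70), mir-219 (1.39) and mir-338 (1.26). The others did not pass: mir-9 (0.05 ± 0.12), mir-137 (-0.05), mir-128 (-0.17) and mir-184 (-0.22). The median of the 8 was 0.37. This list and that of the brakes were chosen with earlier results of these data known. With upper-quartile factors 2 of the 4 that rose, mir-219 and mir-338, passed, and with total counts alone mir-132 and mir-338 did.

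Blood cells could be another source of these families, since mir-92 and other cluster members are abundant in mammalian red cells and leucocytes. Of the erythroid markers 1 of 2 rose, mir-451 (log2 1.15 ± 0.17, edgeR, Benjamini-Hochberg adjusted p = 0.00326), where 10.4% of all tested features rose. The other, mir-144, did not pass (0.06 ± 0.16, SE, edgeR, Benjamini-Hochberg adjusted p = 0.845). The summed level of mir-144 and mir-451 lay between 1152 and 1311 CPM at 26 weeks, against 754 to 973 CPM at 6 weeks. Most of that difference was mir-451, at means of 719 CPM at 26 weeks and 323 CPM at 6 weeks, against 533 and 511 CPM for mir-144. Of 6 leucocyte and microglia markers 3 rose, mir-142 (log2 0.75), mir-150 (0.84) and mir-223 (1.06), where 10.4% of all tested features rose. The others did not pass: mir-155 (0.45), mir-146 (-0.04) and mir-21 (-0.09). The summed level of the 6 markers, mostly mir-21, was 12209 to 18992 CPM at 26 weeks, against 14777 to 19273 CPM at 6 weeks. For mir-150 the call needed the 6-week libraries II, III and IV, being lost when any of them was left out. With upper-quartile factors mir-142 and mir-223 passed and mir-150 did not (edgeR, Benjamini-Hochberg adjusted p = 0.0980). With total counts alone 0 of the 3 that rose passed. Of 3 vessel wall markers, 0 passed by edgeR, against 14.2% of all tested features. An unadjusted edgeR p under 0.05 was found for 2 of them, against 29.2% of tested features. DESeq2 and limma-voom called 1 each, mir-145, where they called 38 and 31 of the 212 tested features. Both mir-126 and mir-145 passed with the library number as a block, where 27.8% of tested features did. Summed levels were 10663 to 18556 CPM at 26 weeks, against 9022 to 13193 CPM at 6 weeks. Without the 26-week library I mir-126 passed, and without II or III mir-145 did. None of these markers was at 0 in any library, the lowest being mir-155 with means of 4.18 ± 1.44 CPM in 26-week libraries and 3.05 ± 2.09 CPM in 6-week libraries (SD, n = 4 each). Fewer cells of a type and less of a miRNA per cell cannot be told apart in whole brain, and the part of blood cells in the levels of mir-92 and mir-25 was not tested.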

How the data were processed

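Small RNA of 8 brain samples was sequenced after TruSeq small RNA library preparation, per the labels' protocols. The authors deposited raw counts, whole numbers for every miRNA family or predicted miRNA. The submitters' processing notes name BWA 0.7.12-r1039, SAMtools 1.3.1-9, Trimmomatic 0.36 and bcl2fastq 1.8.4. The sources used here do not give the genome build, the counting tool or how multi-mapped reads were treated. No coordinates or sequences are given.

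Columns were matched to samples by title and grouped by the age label. No pair of libraries of an age was a near copy (the lowest chi-square per degree of freedom was 131). Counts were tested in R 4.3.3 with edgeR 4.0.16 (quasi-likelihood, TMM, filterByExpr, no covariate, 26 weeks over 6 weeks) over 212 features, 173 named families and 39 predicted miRNAs, with Benjamini-Hochberg adjustment. The features left out held 0.00948% of counts. The SE was approximated from the log2 fold change and the F statistic, as its size over the root of F. A prior count of 2 entered log2 CPM. Ratios were set against each other between the ages by exact permutation (two-sided). The edgeR fit was checked on simulated data, and the permutation tests on made-up values with a known answer.

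Alternatives were other scalings and filters, DESeq2 1.42.0, limma-voom (limma 3.58.1), robust quasi-likelihood, the library number as a block, the log2 total as a covariate and leaving out libraries. Deviations from the age means correlated by 0.287 to 0.528 between libraries of the same number, all above the limit of 0.1, and by up to 0.234 between different numbers. The numbers were taken to pair the libraries by that limit, though the labels do not say what they stand for. Some libraries of different number also passed the limit, so the limit does not by itself set pairs apart. Each value between libraries of the same number was nevertheless above every value between different numbers. The p-values, SE and intervals given are from tests without this pairing unless the block or pairing by number is named.

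Named features were the 4 families, listed families, the 3 features most like each family and its neighbours in level. Members and lists were chosen with earlier results of these data known.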

Additional observations from a re-analysis of the deposited data

Results flagged for a closer look

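By Dixon's test at 95%, 5 of the 76 groups of 4 libraries examined held a library far from the rest of its age, where about 1 in 20, or 3.8 groups, would do so by chance. Of the 4 families this touched mir-17, at 9.82 log2 CPM in the 26-week library II against 10.40 to 10.45 in the other 26-week libraries. The wide spread of mir-19 at 26 weeks was not among them. Its 26-week libraries I to IV were at 10.43, 11.41, 12.01 and 12.39 log2 CPM, and none lay far enough from the rest to pass the test. For mir-124 the 26-week library III was at 13.41, with the others at 12.58 to 12.65. The 26-week library I was low in mir-21, at 13.49, where the others lay between 14.07 and 14.16. The 6-week library I was high in mir-150, at 5.48 against 4.78 to 4.89, and low in mir-143, at 12.25 against 12.72 to 12.81.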

How the results depend on the processing

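None of the 4 families was called under any of the 20 alternatives. The direction of mir-25 (0.10 to 0.47) and of mir-92 (-0.51 to -0.10) held in all 20, with adjusted p from 0.0661 to 0.671 and from 0.0511 to 0.804. The lowest value for mir-92, 0.0511 (edgeR, Benjamini-Hochberg), came from the fit with the library number as a block (log2 -0.32), where mir-25 was at 0.32 (adjusted p = 0.105). The sign of mir-17 turned with RLE factors (0.0199), DESeq2 (0.0198), TMM without the 5 most abundant features (0.0402), no filter (0.10), the total as covariate (0.11) and without both libraries I (0.0398), and leaving out single libraries gave -0.0629 to 0.25. That of mir-19 turned with no filter (0.0187) and without both libraries I (0.0894), with -0.34 to 0.19 over single libraries left out. It was -0.78 with the total as covariate, -0.33 with total counts and -0.20 with the block. The ratio of mir-19 to mir-17 turned without both libraries I (0.0451; -0.44 to 0.23 over single libraries) and that of mir-19 to mir-92 ran from -0.20 to 0.58 over single libraries. The difference in the ratio of mir-25 to mir-92 ran from 0.47 to 0.80, and pairing by number gave an exact permutation p of 0.125, the smallest that 4 pairs allow. The summed share differed by -0.63 percentage points, -1.83 without the 5 most abundant features, -2874 CPM after TMM scaling, and -0.76 to -0.51 over single libraries. All features called numbered 30, and 59 with the block, 4 with the total as covariate, 50 without both libraries I and 23 to 47 over single libraries. Calls among the brakes were 2 with total counts (mir-26 higher, mir-16 lower), 2 with the block or without both libraries I (let-7 and mir-26, both higher), 0 with the covariate and 1 to 2 over single libraries. Among progenitor and differentiation families 2 passed with upper-quartile factors, total counts or the covariate, and erythroid calls were 0 with the covariate. Leucocyte calls were 0 with total counts or the covariate, 2 with upper-quartile factors and 2 to 3 over single libraries. Vessel wall calls were 1 with RLE factors, TMM without the 5 most abundant features, no filter, DESeq2 or limma-voom, 2 with the block or without both libraries I, and 0 to 1 over single libraries. Fits that left out libraries were filtered and scaled anew, so their values also carry a shift of the whole scale. The median log2 fold change of all tested features ran from -0.10 to 0.05 over single libraries left out, against -0.06 with all. The causes were not tested.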
